A study of Mus musculus with 2 samples.

Results

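The cells described here are CD8 T cells of B16-F10 melanomas that held mRNA of Pdcd1, which encodes the inhibitory receptor PD-1, and no mRNA of Tcf7, which encodes the factor TCF-1 of naive, memory and progenitor T cells. They were selected on raw counts of unique molecular identifiers (UMIs, 1 per captured mRNA molecule) in each cell barcode: at least 1 UMI each of Cd3e, Cd8a, Cd8b1 and Pdcd1, none of Cd4, Foxp3, Csf1r or Tcf7, at most 2 of Mki67 and Top2a together, and at most 2 of Gzmc and Gzmf together. The rule took 1589 members, out of 4401 barcodes of the CD8 lineage and 22490 leukocyte barcodes kept for having 300 or more genes with a UMI and no more than 10% of UMIs from mitochondrial genes. Because UMIs of these 12 genes chose the members, their levels are given as a description only.

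Male mice aged 8 to 12 weeks carried the tamoxifen-inducible recombinase R26CreERT2 ki/wt. Trex1 iKO mice were Trex1 fl/fl, and control mice were Trex1 wt/fl, so the controls had 1 conditional allele and were not wild type. R26CreERT2 is active in all cells that express the Rosa26 locus, so loss of Trex1 was not limited to T cells. Each mouse received 1000 B16-F10 cells, a mouse melanoma line, in the skin of both legs, and every group received 1 mg tamoxifen on 3 days from day 5. Tumours were taken on day 14 and live CD45+ cells were sorted, tagged with hashtag antibodies and run as 1 droplet library pool of 4 hashtagged samples per genotype. Genotype and pool cannot be told apart, and the labels do not say whether each hashtagged sample is 1 mouse, so the p-values measure only the spread between samples.

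CD8 T cells that meet tumour antigen again and again keep PD-1 on their surface. They pass from a TCF-1+ progenitor state, which renews itself, to TCF-1- states that carry more inhibitory receptors (LAG-3, TIM-3) and granzymes. The factor TOX holds this exhausted programme, and CXCR6 retains such cells in tissue. Trex1 encodes an exonuclease that degrades DNA in the cytosol. Without it, DNA can activate cGAS and STING, which induce type I interferon, and interferon then acts on neighbouring cells through the receptor IFNAR and the factor complex ISGF3. The design asks how induced loss of Trex1 alters the immune response to the tumour.

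iKO samples 1 to 4 gave 364, 905, 39 and 63 members, and the 4 control samples gave 106, 48, 39 and 25. Their summed UMIs per sample ranged from 268710 to 11709503. Their median depth was 12684 and 12256 UMIs in iKO samples 1 and 2, 6565 and 7363 in iKO samples 3 and 4, and 11071 to 12734 in the control samples. Median mitochondrial shares were 1.48% to 1.74% in iKO and 1.96% to 2.11% in control samples. No barcode was shared by samples of 1 pool, and no member's barcode occurred among the members of the other pool. Deletion of Trex1 could not be checked, since Trex1 had 2 UMIs in all kept barcodes together, both in control sample 2 and none in a member. For counting error only, this allows up to 0.256 to 11.2 counts per 1000000 UMIs (CPM) in members, by sample. That bound covers only reads counted as Trex1, and whether its reads were lost or counted under another gene was not tested. RNA of other cells was present in member barcodes. Lyz2, a macrophage and neutrophil gene, had a UMI in 74.4% to 79.7% of iKO members and 84.0% to 91.5% of control members. The 15 listed macrophage and monocyte markers summed to 583 to 954 CPM in iKO members and 775 to 862 CPM in control members, against 12734 to 21011 CPM in the leukocytes outside the CD8 lineage, and all 15 had UMIs in members of both genotypes.

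iKO samples 1 and 2 were alike in the variable segments of their T cell receptors. Members with exactly 1 beta chain variable segment seen numbered 72 and 186 in iKO samples 1 and 2. Trbv13-1 led in both, with 26.4% and 25.3% of those cells, and Trbv31, Trbv5 and Trbv16 were frequent in both. In control sample 1, Trbv12-2 was seen in 20 of 31 such cells, and in control samples 2 to 4 Trbv2 led with 7 of 16, 8 of 14 and 4 of 9. For the alpha chain, Trav7-1 led in iKO samples 1 and 2, with 17 of 74 and 48 of 184 cells, and was seen in 1 member of all other samples. Trav16 was seen in 14 of 23 such members of iKO sample 4. The cosine similarity of usage between iKO samples 1 and 2, which is 1 for equal usage, was 0.95 for beta and 0.94 for alpha segments. The other 27 pairs of samples had medians of 0.34 and 0.11 and maxima of 0.86 and 0.68, the highest ones from samples with 5 to 16 such cells. In cycling CD8 T cells the similarity between iKO samples 1 and 2 was 0.86 and 0.92, also above the other pairs (maxima 0.74 and 0.75). In Pdcd1- Tcf7+ CD8 T cells it was 0.56 and 0.37, within the range of the other pairs (medians 0.36 and 0.10, maxima 0.79 and 0.43). Whether these samples share an animal is not given in the sources used here and was not tested, and the shares and the test between genotypes were therefore also run with iKO samples 1 and 2 summed as 1 sample, which was not done for the shares of cells at equal depth or the comparison of populations.

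**Figure D1:**
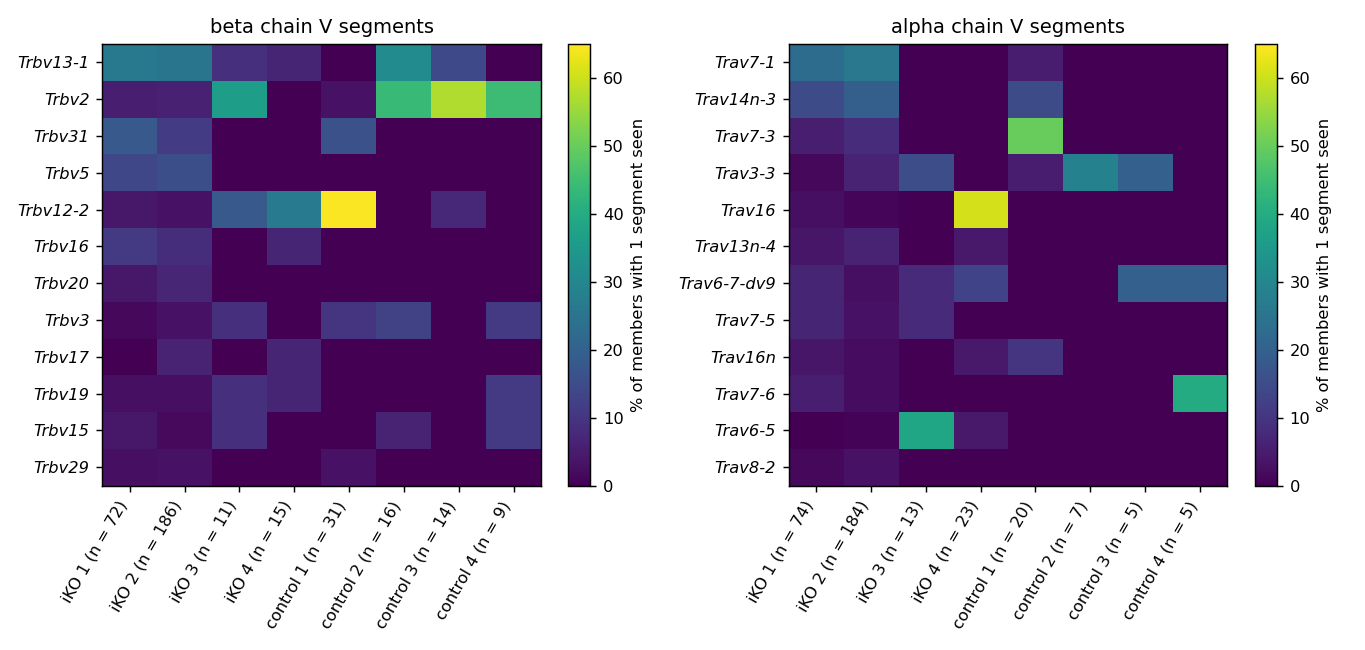
Share of members (colour, % of members with exactly 1 segment seen) that held each of the 12 most frequent beta (left) and alpha (right) chain variable segments, by sample, with the number of such members in brackets. The columns of iKO samples 1 and 2 look alike, led by Trbv13-1 and Trav7-1, while control sample 1 is led by Trbv12-2 and iKO sample 4 by Trav16.

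The name of the population fitted its marker genes that the rule did not use, when members were set against Pdcd1- Tcf7+ cells. After each barcode was thinned to 3000 UMIs, Lag3 was seen in 59.3% of iKO and 52.8% of control members, against 5.58% and 3.66% of Pdcd1- Tcf7+ CD8 T cells. Tox was seen in 54.0% and 55.6% of members against 11.2% and 13.6%, and Cxcr6 in 84.1% and 70.6% against 25.6% and 15.7%. Il7r, a gene of resting T cells, ran the other way, seen in 8.75% and 15.0% of members against 62.3% and 66.0% of Pdcd1- Tcf7+ cells. The markers did not set members apart from cycling CD8 T cells or those above the limit on Gzmc and Gzmf. Lag3 was seen in 53.2% (iKO) and 39.8% (control) of cycling cells and 60.1% and 55.9% of the Gzmc or Gzmf cells. Tox was seen in 47.7% and 52.6% and in 38.7% and 55.9%, and Cxcr6 in 68.8% and 58.8% and in 81.9% and 79.4%. In B cells (Cd79a and Ms4a1 without Cd3e), which should lack these T cell genes, Lag3 was seen in 0.985% (iKO) and 1.08% (control), Tox in at most 1.52%, and Cxcr6 in 3.45% and 1.08%, at median depths of 5042 and 4044 UMIs before thinning. Thinning left out 11 iKO and 4 control members. The residency integrin gene Itgae was seen in 0.515% of iKO and 0.467% of control members, and Klrg1, a marker of short-lived effector cells, in 1.25% and 2.80%.

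The edges of the rule were soft. Of the members, 194 had exactly 1 Pdcd1 UMI, 10.4% of iKO and 23.9% of control members, and 257 CD8 T cells just outside had neither Pdcd1 nor Tcf7, at a median of 6870 UMIs against 12015 in members. Pdcd1 UMIs numbered 5 or more in 58.9% of iKO and 33.0% of control members. Of the 180 Pdcd1+ Tcf7+ cells, 63 were outside by a single Tcf7 UMI. At the limit on division genes, 754 members held 1 or 2 UMIs of Mki67 and Top2a, and 195 of the 1695 cycling cells held exactly 3. At the limit on Gzmc and Gzmf, 258 members held 1 or 2 UMIs, and 25 of the 272 cells above it held exactly 3.

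Members made up a larger part of the CD8 T cells in iKO tumours. They were 33.7%, 41.5%, 31.2% and 30.4% of CD8 lineage cells in iKO samples 1 to 4, while the 4 control samples had 28.5%, 27.4%, 24.1% and 25.0%, so the groups did not overlap. The means were 34.2% ± 5.07 (SD, n = 4) and 26.2% ± 2.06 (SD, n = 4), a difference of 7.96 percentage points (exact permutation test, two-sided p = 0.0286, the smallest that 4 against 4 samples can give). Counting error alone was wide in the small samples: the 95% Wilson interval was 23.7% to 39.8% in iKO sample 3 and 17.5% to 34.3% in control sample 4. Cells with neither Pdcd1 nor Tcf7, outside the rule for lack of a Pdcd1 UMI, ran the other way. They averaged 6.74% of CD8 lineage cells in iKO and 12.3% in control samples (-5.56 points, exact permutation test, two-sided p = 0.0571). How far detection of Pdcd1 moved cells between these 2 classes was not tested. When the rule was applied anew to barcodes thinned to 3000 UMIs, the shares were 36.9% to 47.3% in iKO and 25.2% to 35.4% in control samples (exact permutation test, two-sided p = 0.0286). Thinning evens out depth but also loosens the upper limits on division genes, Gzmc, Gzmf and Tcf7. Cells outside the rule at full depth can thus enter, and iKO sample 1 had 378 members after thinning against 364 before. The thinned shares therefore concern a partly different set of cells. Without any 1 control sample the groups still did not overlap, and the difference was 7.24 to 8.71 points at an exact permutation p of 0.0571. The call was thus lost without any 1 control sample. It was kept without any 1 iKO sample, which left as many samples in the test. The difference was then 5.52 to 9.22 points (exact permutation test, two-sided p = 0.0286). With iKO samples 1 and 2 summed the difference was 7.27 points (exact permutation p = 0.0286). Of all kept leukocytes, the iKO samples held 9.41%, 15.3%, 2.99% and 2.56% members, and the control samples 5.36%, 2.80%, 1.41% and 1.00%, a difference that did not pass (exact permutation test, two-sided p = 0.20). The share of leukocytes depends on all other sorted cells. Without iKO sample 2 its difference of 4.93 points was 2.35 points.

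**Figure D2:**
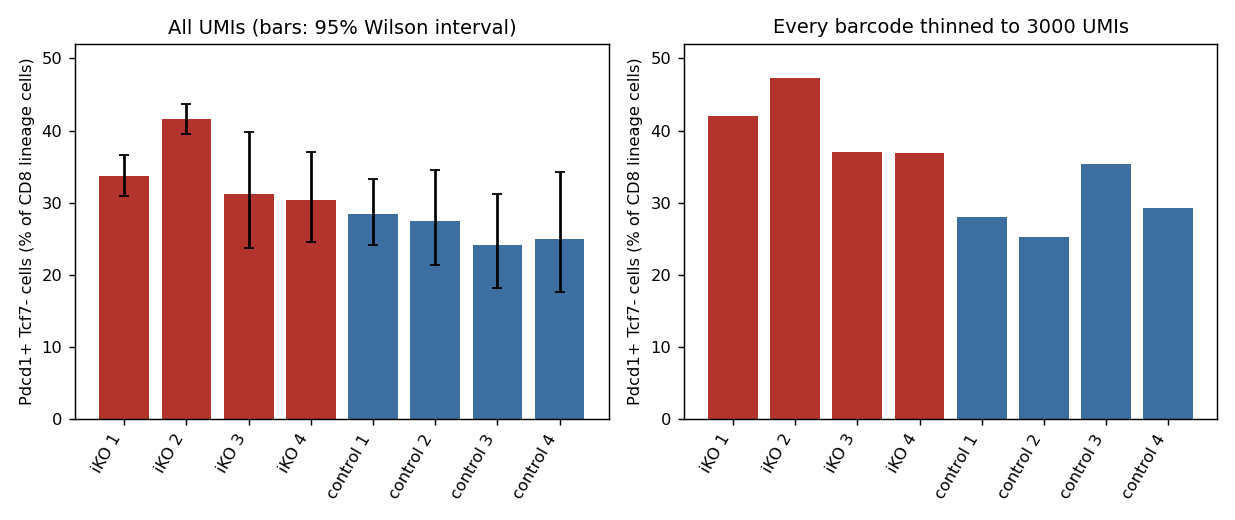
Share of CD8 lineage cells that were members in each sample (y axis, %), from all UMIs with 95% Wilson intervals of counting error (left) and after thinning each barcode to 3000 UMIs (right), iKO in red and control in blue. All 4 iKO bars are above the 4 control bars in both panels, by a narrow margin between iKO sample 4 and control sample 1 on the left and iKO sample 4 and control sample 3 on the right.

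Member UMIs were summed per sample and tested between genotypes with edgeR's quasi-likelihood test. Of 5657 genes tested, 388 (6.86%) had a Benjamini-Hochberg adjusted p under 0.05, 202 higher (3.57%) and 186 lower (3.29%) in iKO. These counts include Cd8b1 and Pdcd1, both higher, which the rule used. For 741 genes (13.1%) all iKO samples lay on one side of all control samples. Most of the largest rises were interferon-stimulated genes. Gzmb and MHC class I genes also rose, and Tnfrsf4, both chains of the IL-18 receptor, Slc16a11 and Nrgn were among the genes that fell. The count of calls was 288 with iKO samples 1 and 2 summed, a setting that ended the calls of 9 of 70 called genes examined under each setting (Mndal, Hells, Zeb2, Ikzf3, Cd48, Cd200r1, Spp1, Zfp36 and Cdkn1a, with edgeR adjusted p of 0.0516 to 0.123). It was 251, 228 and 248 without iKO sample 2, control sample 2 and control sample 3. It was 132 when members were chosen after thinning to 3000 UMIs, which took a partly different set of cells. This fit of 7 samples also ended the calls of 35 of 68 called genes examined under each setting. Of the 12 largest rises it ended that of Iigp1, and of the list genes below those of Gzmb, Ctsd, Nkg7, Gzmk, Ccl5, Tnfrsf4, Lat, Stat4, Gbp7 and Hmgb2 among others. Of the 12 largest falls it ended those of Csf2, Ccr7, Penk, Bmyc and Dscam, and it did not test Cd70 and Cd83. Lists of genes are described below by their counts and their median log2 fold change (iKO over control), beside a median of -0.02 over all tested genes. In bulk sums a larger share of strongly expressing members and more RNA per member cannot be told apart.

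Type I interferon response genes were higher as a group. Of 55 tested genes on the list, 46 rose, none fell, and all 55 had a log2 fold change above 0, with a median of 1.27. Irf7, the factor that amplifies interferon production, was at 106, 107, 118 and 126 CPM in iKO samples 1 to 4 and at 28.0, 18.1, 11.1 and 3.89 CPM in control samples 1 to 4. The iKO samples were close together and each was above the highest control sample, with a log2 fold change of 2.51 ± 0.25 (SE; edgeR adjusted p = 6.79e-05). Isg15, a ubiquitin-like protein that is attached to other proteins, was at 304, 344, 180.3 and 357 CPM in iKO and 76.5, 29.0, 15.6 and 42.7 CPM in control samples. Its groups did not overlap, and its log2 fold change was 2.70 ± 0.32 (SE; edgeR adjusted p = 0.000169). Ifit3, an inhibitor of viral RNA translation, was at 87.2, 100.4, 75.4 and 148 CPM in iKO and 19.7, 5.43, 8.90 and 0 CPM in control samples (log2 fold change 3.05 ± 0.36, SE; edgeR adjusted p = 0.000158).

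The 12 largest rises under the naming rule were Isg15, Irf7, Cxcl10 (a chemokine for CXCR3+ T cells), Iigp1 (an immunity-related GTPase), Usp18 (which removes Isg15 and damps IFNAR signalling), Ifit3, Rtp4, Ifi27l2a, Ifit1, Ly6c2 (the Ly6C antigen of activated CD8 T cells), Rsad2 (viperin) and Oas3 (a sensor of double-stranded RNA). Their log2 fold changes ran from 2.44 for Oas3 to 3.46 for Cxcl10. Ifi27l2a had the highest level among them, at 5589.9, 4478, 3075 and 2322 CPM in iKO and 1189, 456, 460.5 and 451 CPM in control samples. Ly6c2 was at 1383, 1490.3, 1432 and 589.8 CPM in iKO and 408, 139, 160.2 and 120.5 CPM in control samples, so iKO sample 4 was lower than the other iKO samples yet above all controls. Reads of Ly6c2 and Ifit3 may be shared with the near-identical genes Ly6c1 and Ifit3b, and their levels are uncertain to that extent. Without control sample 1 the log2 fold change of Oas3 was 4.49, since the other control samples held few of its UMIs, and it still passed.

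The rise was spread over most members. At 3000 UMIs per cell, the listed interferon genes together gave a median of 48, 43, 38 and 41 UMIs per member in iKO samples 1 to 4, and the 4 control samples gave 17, 17, 16 and 12.5. The 10th percentile of members was 19.0 to 25.7 in the iKO samples, above every control median. Of iKO members, 97.9% were above the median of the control members, and 61.6% were above their 90th percentile of 37 UMIs. Control sample 1 held most of the high control members, with 18.1% of its members above that percentile against at most 4.17% in each other control sample. B cells of the same samples had medians of 29 to 43 UMIs in iKO and 17 to 22 UMIs in control, so the same genes were higher in iKO in these cells too. RNA of these genes in other cells, a possible source of free RNA, also differed by genotype: Isg15 was at 836 to 2174 CPM in leukocytes outside the CD8 lineage in iKO and at 205 to 376 CPM in control samples. Free RNA itself was not measured, and its part in the rise was not tested.

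**Figure D3:**
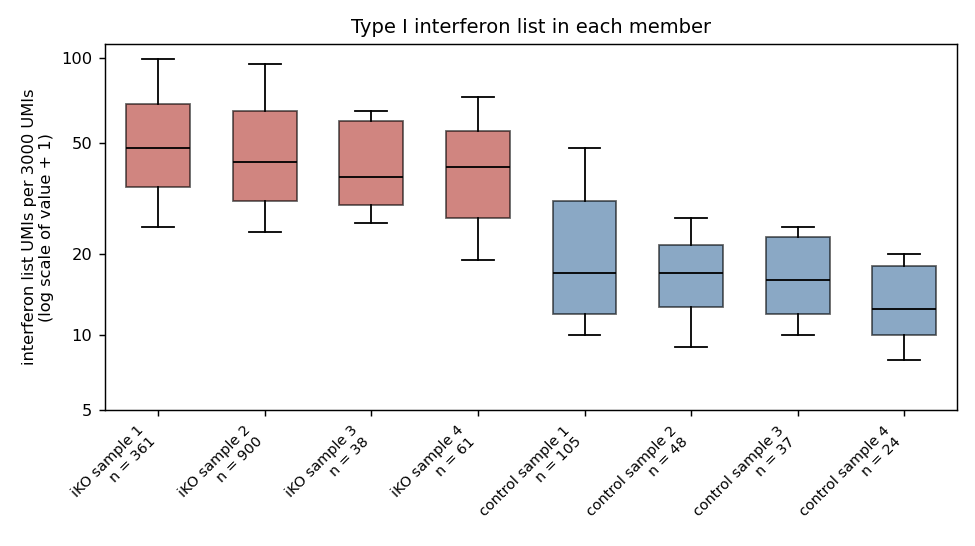
UMIs of the type I interferon list per member after thinning to 3000 UMIs (y axis, log scale of the value plus 1), by sample, iKO in red and control in blue. Boxes span the quartiles with the median as a line, and whiskers reach the 10th and 90th percentiles. The iKO medians of 38 to 48 UMIs lie above the control medians of 12.5 to 17 UMIs.

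Promoters of 3 of these genes are shown because they carry the sequence that ISGF3 is known to bind. The motif searched was GAAANNGAAA on either strand (TTTCNNTTTC on the other), in RefSeq windows of 300 bases, from 250 before to 50 after the start of transcription (GRCm38.p6, whereas the counts were made on GRCm39). Capitals mark the matches, and overlapping matches run together. The stretches are Isg15 at chr4:156200845-156200926 (minus strand), Ifit1 at chr19:34640755-34640843 (plus strand) and Oas3 at chr5:120777695-120777764 (minus strand).
Isg15: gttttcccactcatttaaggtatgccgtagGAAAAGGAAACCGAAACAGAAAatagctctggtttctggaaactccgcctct
Ifit1: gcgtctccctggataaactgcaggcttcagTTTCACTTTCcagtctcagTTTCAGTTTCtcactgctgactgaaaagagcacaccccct
Oas3: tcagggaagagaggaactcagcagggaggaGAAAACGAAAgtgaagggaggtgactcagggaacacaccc
Isg15 held 3 overlapping matches, of which the first began 78 and the last 66 bases upstream of the start, Ifit1 held 2 and Oas3 held 1. Of the 12 genes with the largest rise, 8 had a promoter in the table and 6 of these held the motif: Isg15, Ifit1, Ifit3, Oas3, Rsad2 and Cxcl10. It was found for 35 of 161 genes called higher with a promoter (21.7%), 4 of 136 called lower (2.9%), 207 of 4593 tested genes (4.5%) and 1131 of all 32851 promoters (3.4%). A match describes letters, not binding.

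Genes that raise antigen display followed. Of 21 tested MHC class I presentation genes, 14 rose and none fell (median log2 fold change 0.55). H2-T22 was at 399, 352, 397 and 385 CPM in iKO and 198, 217, 176 and 206 CPM in control samples, with a small spread in each group (log2 fold change 0.94 ± 0.12, SE; edgeR adjusted p = 0.000307). H2-D1, a classical class I heavy chain, rose by 0.55 ± 0.09 (SE; edgeR adjusted p = 0.00194), and the transporter genes Tap1 and Tap2 and the immunoproteasome genes Psmb8, Psmb9 and Psmb10 were among the other rises. Reads of H2-Q7 may be split with other Qa genes. Of 20 tested interferon gamma response genes, 9 rose and none fell (median 0.69), among them Irgm1 with 1.49 ± 0.22 (SE; edgeR adjusted p = 0.00116) and Gbp7 with 0.87 ± 0.16 (SE; edgeR adjusted p = 0.00473). This list overlaps in its biology with type I interferon targets. Of 9 tested DNA-sensing genes, Samhd1, a dNTP hydrolase and interferon target, rose by 1.46 ± 0.20 (SE; edgeR adjusted p = 0.000698), and so did Mndal (0.51 ± 0.12, SE; edgeR adjusted p = 0.0192), whose call ended when any 1 of iKO sample 2 and control samples 2 to 4 was removed (edgeR adjusted p up to 0.0877). Sting1 had a log2 fold change of -0.13 (edgeR adjusted p = 0.72). The receptor genes Ifnar1 and Ifnar2 were at -0.11 and -0.01 and did not pass (edgeR adjusted p = 0.84 and 1.0).

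**Figure D4:**
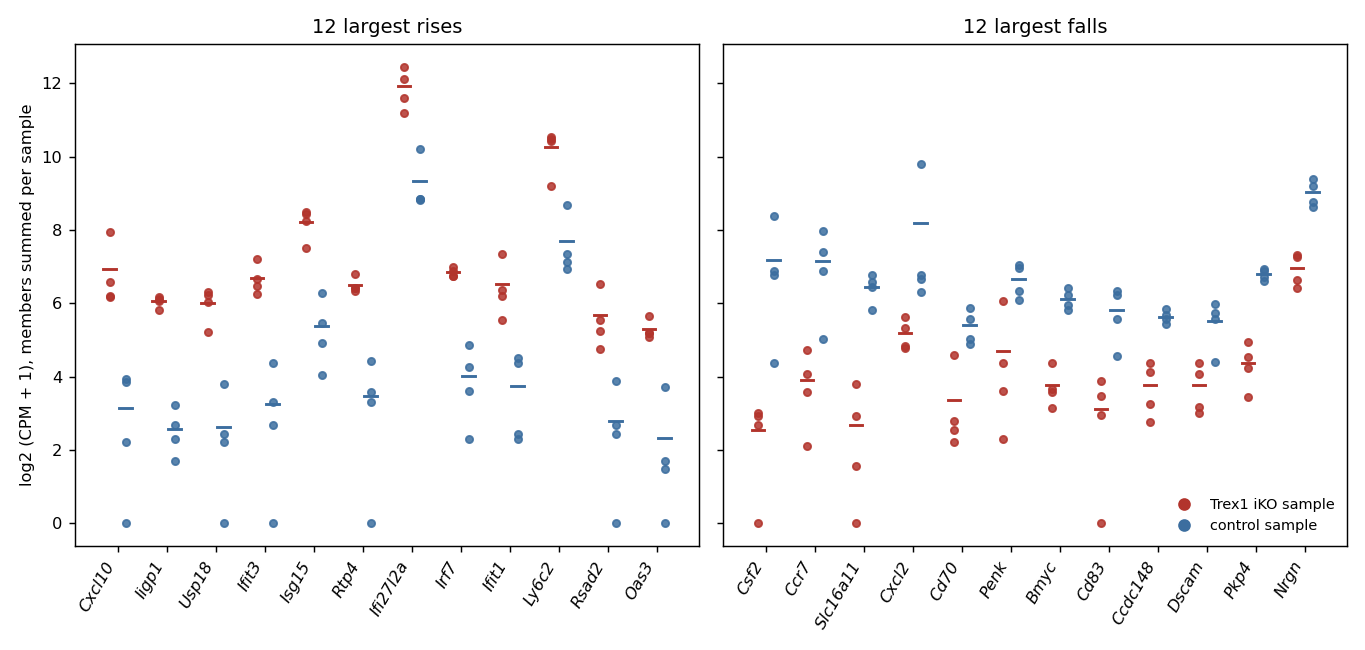
Level of the 12 genes with the largest rise (left) and the 12 with the largest fall (right) in members summed per sample (y axis, log2 of CPM + 1). Each dot is a sample, iKO in red and control in blue, and each bar marks the log2 of the group mean plus 1. No gene has overlapping groups, which the rule for choosing these genes required.

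The killing machinery rose in part. Of 13 tested cytotoxic effector genes, 6 rose and none fell (median log2 fold change 0.64). Gzmb, the protease that starts apoptosis in target cells, was at 3042, 1929.7, 1272 and 1146 CPM in iKO samples 1 to 4 and 599, 249.9, 398 and 206 CPM in control samples 1 to 4. The lowest iKO sample was above the highest control sample, and the log2 fold change was 2.31 ± 0.33 (SE; edgeR adjusted p = 0.00081). At equal depth Gzmb was seen in 72.1% to 86.7% of members of the iKO samples and 16.7% to 53.3% of control samples, against 14.3% and 4.1% of iKO and control B cells. The death ligand gene Fasl was at 110.3, 115, 180.3 and 174 CPM in iKO and 71.2, 65.2, 44.5 and 73.8 CPM in control samples (log2 fold change 1.08 ± 0.21, SE; edgeR adjusted p = 0.00651). Ctsd rose by 0.64 and Nkg7, a granule protein gene, by 0.58 on the log2 scale, and the Nkg7 call was lost without control sample 2 or 4 (edgeR adjusted p = 0.0542 and 0.0549). The pore gene Prf1 did not pass, at 1278, 742, 199.9 and 369 CPM in iKO and 584, 337, 258 and 295 CPM in control samples (edgeR adjusted p = 0.287).

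The iKO samples were not uniform in the exhaustion and effector genes. Lag3 was at 489 and 392 CPM in iKO samples 1 and 2, 144 and 154 CPM in iKO samples 3 and 4, and 289, 225, 314 and 214 CPM in control samples 1 to 4. The iKO samples thus lay on both sides of the controls, and the log2 fold change of 0.25 ± 0.31 (SE) did not pass (edgeR adjusted p = 0.725). Havcr2, which encodes TIM-3, was at 279, 227, 91.8 and 88.8 CPM in iKO and 234, 179, 236 and 77.7 CPM in control samples (edgeR adjusted p = 0.996). Ifng was at 871, 834, 226 and 449.7 CPM in iKO and 482, 357, 376 and 342 CPM in control samples (edgeR adjusted p = 0.249). Without the filter on low counts Ifng and Prf1 passed (edgeR adjusted p = 0.0429 and 0.0375). Gzmk, a granzyme of less differentiated effector cells, ran the other way, at 111 and 119 CPM in iKO samples 1 and 2, 357 and 359 CPM in iKO samples 3 and 4, and 58.3 to 81.8 CPM in control samples. Its log2 fold change was 1.498 ± 0.38 (SE; edgeR adjusted p = 0.0332), and the call was lost without any 1 of iKO samples 3 and 4 or of the 4 control samples (edgeR adjusted p = 0.0618 to 0.0879). Cxcr3 and Eomes, chosen here after their values were seen, had the same pattern, with 157 and 124 CPM and 144 and 108 CPM in iKO samples 3 and 4 against 14.5 to 28.9 CPM and 30.9 to 65.9 CPM in the other 6 samples.

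These differences among iKO samples were also seen when members were thinned to equal depth. Thinning came after the members were chosen, so Tcf7 was still judged at lower depth in iKO samples 3 and 4. The part of missed Tcf7 UMIs was not tested. With 3000 UMIs per cell, Lag3 was seen in 66.2% and 59.4% of members of iKO samples 1 and 2 and in 31.6% and 32.8% of iKO samples 3 and 4. Prf1 was seen in 77.6% and 65% against 28.9% and 36.1%, and Gzmk in 24.4% and 26.6% against 57.9% and 60.7%. Slamf6 was seen in 1.39% and 2.11% against 15.8% and 11.5%. Tox showed no such split, with 54.0%, 54.2%, 39.5% and 60.7% in iKO and 66.7%, 43.8%, 48.6% and 41.7% in control samples. iKO samples 3 and 4 hold 102 of the 1371 iKO members. Without both of them, an alternative chosen after the data were seen, Lag3, Ifng, Prf1 and Cxcr6 were higher in iKO with log2 fold changes of 0.77, 1.14, 1.43 and 0.53 (edgeR adjusted p = 0.00647, 9.73e-05, 0.0024 and 0.00647). iKO samples 1 and 2 are the pair with like variable segments. With these summed as 1 sample and iKO samples 3 and 4 kept, the log2 fold changes of Lag3, Ifng, Prf1 and Cxcr6 were -0.02, 0.43, 0.45 and 0.25, and none passed (edgeR adjusted p = 0.414 to 0.997).

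**Figure D5:**
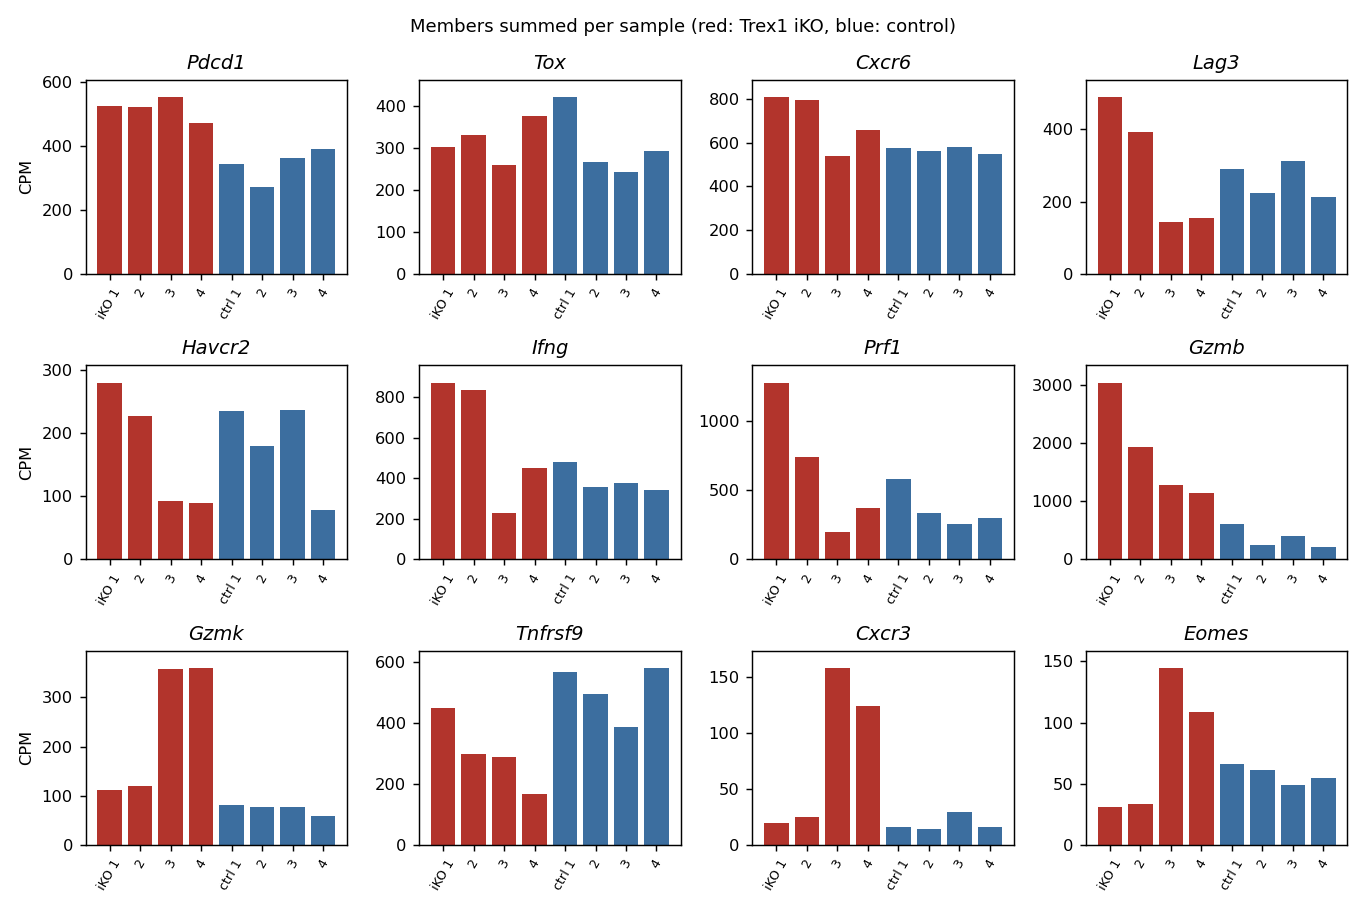
CPM of 12 genes (y axes, linear, from 0) in members summed per sample, iKO in red and control in blue. Gzmb is above all controls in each iKO sample. Among the iKO samples, Lag3, Havcr2, Ifng and Prf1 are higher in samples 1 and 2 than in samples 3 and 4, and Gzmk, Cxcr3 and Eomes show the opposite order.

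The marker genes Tox and Cxcr6 did not pass the test. Tox was at 301, 331, 259 and 375 CPM in iKO and 419, 266, 242 and 291 CPM in control samples (log2 fold change 0.04 ± 0.17, SE; edgeR adjusted p = 0.955). Cxcr6 was at 807, 793, 541 and 657 CPM in iKO and 577, 561, 578 and 548 CPM in control samples (0.32 ± 0.13, SE; edgeR adjusted p = 0.18), and passed without iKO sample 3 (0.42, edgeR adjusted p = 0.0402). As a description of genes the rule used, Pdcd1 was at 522, 521, 551 and 469 CPM in iKO and 341, 269.8, 363 and 389 CPM in control samples, and Cd8a at 879.7 to 1232 and 701 to 875 CPM.

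Among 11 tested inhibitory receptor genes none rose and 2 fell (median log2 fold change 0.18). Cd200, a ligand that restrains myeloid cells, was at 17.3, 17.1, 19.7 and 19.7 CPM in iKO and 29.5, 67.0, 80.1 and 42.7 CPM in control samples (-1.55 ± 0.28, SE; edgeR adjusted p = 0.00461). The Cd200 call was lost when 25 members were drawn per sample. Its receptor gene Cd200r1 fell by 0.86 on the log2 scale, a call lost with any 1 control sample left out and with iKO sample 1 left out (edgeR adjusted p up to 0.109). Ctla4 had a log2 fold change of 0.34 and Entpd1, which encodes the ectonucleotidase CD39, of 0.78 (edgeR adjusted p = 0.312 and 0.0722). Entpd1 passed without iKO sample 4 or control sample 1 (edgeR adjusted p = 0.0273 and 0.023). Of 19 tested exhaustion and effector transcription factor genes, Ikzf3 rose and Ikzf2, Zeb2 and Bhlhe40 fell (median 0.08), with edgeR adjusted p of 0.0332 to 0.0441. These 4 calls were weak: each was lost without control sample 2 and without control sample 4, and at least 2 further samples had the same effect on each, with adjusted p up to 0.155. Of 5 tested memory genes Ccr7 alone fell (median -0.64). No gene of the killer lectin-like receptor list (5 tested) passed in edgeR or DESeq2, and 0 had an unadjusted p under 0.05.

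Costimulatory receptors moved in both directions. Tnfrsf4, which encodes OX40, was at 117, 74.4, 55.7 and 55.2 CPM in iKO and 201, 288, 276 and 272 CPM in control samples. Every control sample was above every iKO sample (-1.64 ± 0.22, SE; edgeR adjusted p = 0.000387). Tnfrsf18 (GITR) fell by 0.78 on the log2 scale, a call that ended with removal of any 1 of iKO sample 2 and control samples 2 and 3 (edgeR adjusted p up to 0.0805). Cd2, an adhesion and costimulatory receptor gene, was at 599, 468, 492 and 535 CPM in iKO and 285, 269.8, 262 and 245 CPM in control samples (0.97 ± 0.12, SE; edgeR adjusted p = 0.00025). Of the 13 tested genes of this list 3 rose and 2 fell (median 0.24), and the other rises were Slamf7 and Cd48, whose call ended with removal of any 1 sample numbered 1 to 3 of either genotype (edgeR adjusted p up to 0.0991). Tnfrsf9 (4-1BB) had a log2 fold change of -0.72 (edgeR adjusted p = 0.0783) and passed without iKO sample 1 and with iKO samples 1 and 2 summed. Of 21 tested T cell receptor signalling genes 3 rose (median 0.29): the adaptor gene Lat by 0.75 ± 0.14, Cd3g by 0.61 ± 0.13 (SE; edgeR adjusted p = 0.00555 and 0.00998) and Trac, whose call ended with removal of any 1 of iKO samples 3 and 4 and control samples 2 to 4 (edgeR adjusted p up to 0.107). The Cd3g call was lost when 25 members were drawn per sample.

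Cytokine receptors and STAT genes fell where they passed. Of 25 tested genes of interferon and cytokine receptors and JAK-STAT regulators, none rose and 5 fell (median log2 fold change -0.12): Il18rap, Il18r1, Stat4, Stat3 and Il2ra. Il18r1 was at 91.7, 112, 62.3 and 78.9 CPM in iKO and 129, 176, 265 and 225 CPM in control samples (-1.06 ± 0.22, SE; edgeR adjusted p = 0.00946), and Il18rap, the other chain of the IL-18 receptor, was at -1.35 ± 0.27 (SE; edgeR adjusted p = 0.0079). Stat4, which carries IL-12 signals, fell by 0.75 and Stat3 by 0.79 on the log2 scale, and the Stat3 call was lost without control sample 2 or 3 (edgeR adjusted p up to 0.0846). Irf9, counted with the interferon list, rose by 1.41.

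Chemokine and homing genes were mixed. Ccl5 was at 6324, 6677, 15110.4 and 16922 CPM in iKO and 4620.4, 3772, 5828 and 5277 CPM in control samples, highest in iKO samples 3 and 4 (1.21 ± 0.27, SE; edgeR adjusted p = 0.0149), and the call was lost without control sample 2 (edgeR adjusted p = 0.0591). Without iKO samples 3 and 4 its log2 fold change was 0.45. Of 12 tested T cell cytokine and chemokine genes Ccl5 and Ltb rose, and Csf2 and Spp1 fell (median 0.33). The Ltb call was lost when any 1 of 6 samples was left out (all but iKO sample 1 and control sample 4; edgeR adjusted p up to 0.116), and the Spp1 call with any 1 but iKO sample 4 left out (edgeR adjusted p up to 0.145). Of 17 tested homing and residency genes, 2 rose, among them Ccr2, and Cx3cr1 and Ccrl2 fell (median 0.39). The Ccr2 call was lost without control sample 2, 3 or 4 and the Ccrl2 call with removal of any 1 of iKO sample 2 and control samples 2 and 4 (edgeR adjusted p up to 0.0855 and 0.107). Cx3cr1 was at 48.8, 35.1, 42.6 and 21.7 CPM in iKO and 100.0, 107, 165 and 128 CPM in control samples (-1.64 ± 0.22, SE; edgeR adjusted p = 0.000387). Cx3cr1 and Spp1 are also genes of macrophages, whose summed markers are given above.

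The 12 largest falls under that rule were Csf2, Ccr7, Slc16a11, Cxcl2, Cd70, Penk, Bmyc, Cd83, Ccdc148, Dscam, Pkp4 and Nrgn, from -4.36 to -1.97 on the log2 scale. Slc16a11, of the monocarboxylate transporter family, was at 12.9, 6.66, 0 and 1.97 CPM in iKO and 55.3, 86.9, 95.7 and 109 CPM in control samples (-3.27 ± 0.35, SE; edgeR adjusted p = 7.35e-05). It had a UMI in 37 of 106, 15 of 48, 14 of 39 and 11 of 25 control members and in 5.8% of iKO members, and was at no more than 3.19 CPM in leukocytes outside the CD8 lineage. Nrgn, which encodes the calmodulin-binding protein neurogranin, was at 159, 154, 85.2 and 98.6 CPM in iKO and 392, 581, 669.6 and 435 CPM in control samples (-1.97 ± 0.21, SE; edgeR adjusted p = 7.38e-05). Its highest level outside the CD8 lineage was 47.8 CPM. Pkp4, a plakophilin family gene, had a UMI in 19.5% of iKO and 51.4% of control members (-2.15 ± 0.20, SE; edgeR adjusted p = 5.71e-05), and Bmyc, of the Myc family, in 9.4% and 44.0% (-2.57 ± 0.21, SE; edgeR adjusted p = 2.6e-05). These 4 falls were thus carried by many cells, though the Bmyc call was lost when members were chosen after thinning to 3000 UMIs.

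In other falls, few cells held many of the UMIs of some control samples. Csf2, which encodes the cytokine GM-CSF, was at 7.12, 5.47, 6.56 and 0 CPM in iKO and 19.7, 116, 109 and 330.3 CPM in control samples, but the 85 UMIs of control sample 4 came from 2 of its 25 members and 60 of the 64 UMIs of control sample 2 from 1 cell. Ccr7, a lymph node homing receptor, had 70 of its 92 UMIs in control sample 2 in 1 cell, and Cxcl2, a neutrophil chemokine, had 246 of 488 UMIs there in 1 cell. Without control sample 2 the log2 fold change of Cxcl2 was -1.40 (edgeR adjusted p = 0.00692), and Csf2 was not among the genes tested. With all samples that of Cxcl2 was -3.01 (edgeR adjusted p = 0.0145). Cxcl2 was at 2063 to 4160 CPM in control leukocytes outside the CD8 lineage and 649 to 1746 CPM in iKO ones, and the 9 listed neutrophil markers summed to 268 to 1434 CPM in control and 135 to 473 CPM in iKO members. The part of that RNA in the member values was not tested. At equal depth Ccr7 was seen in at most 1.64% of members of each iKO sample and 8.3% to 25.0% of control samples. When each gene was counted without the member of each sample that held most of its UMIs, an alternative chosen after the data were seen, Ccr7 and Cxcl2 still passed, and Csf2, Cd70, Cd83 and Dscam were no longer among the genes tested.

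Programmes of cell state showed few calls. No gene passed of 10 heat shock, 17 glycolysis and 28 oxidative phosphorylation genes tested (medians 0.43, 0.03 and -0.01). At an unadjusted p under 0.05 in edgeR these were 3, 4 and 1 genes, and DESeq2 called 1, 0 and 0. Of 22 immediate early and activation genes Cd83 and Zfp36 fell (median -0.40), the latter lost without any 1 of 4 samples (iKO samples 1 and 2, control samples 2 and 3; edgeR adjusted p up to 0.16). Of S phase genes (13 tested) Hells rose, and of G2 and M phase genes (6 tested) Hmgb2 rose, at 752, 588, 544 and 629 CPM in iKO and 427, 378, 305 and 400.2 CPM in control samples (0.74 ± 0.14, SE; edgeR adjusted p = 0.00498). Removal of any 1 of iKO samples 1 and 2 and control samples 1 and 3 ended the Hells call (edgeR adjusted p up to 0.0783). Of 18 survival and apoptosis genes the cell death gene Bcl2l11, which encodes BIM, and the cell cycle inhibitor gene Cdkn1a fell (median -0.30). Bcl2l11 fell by 0.85 on the log2 scale, a call lost without control sample 2 or 3 (edgeR adjusted p up to 0.065), and the Cdkn1a call was lost without any 1 of 6 samples (all but control samples 1 and 4; edgeR adjusted p up to 0.178). Of the lists of other cell types, Apoe of 9 macrophage genes, H2-Aa of 4 dendritic cell genes and Pf4 of 1 platelet gene tested were lower in iKO members, and none was higher. The 10 dendritic cell markers summed to 394 to 980 CPM in iKO and 691 to 1407 CPM in control members.

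Shares of members with a UMI were compared at equal depth for 20 genes. The groups did not overlap for 6 of them, Gzmb, Gzmk, Ccl5, Isg15, Irf7 and Ly6c2, each higher in iKO, against 7.6% of all tested genes. Each of the 6 had an exact permutation p of 0.0286 and an adjusted p of 0.0952 over the 20 genes, so none passed after correction, which 4 against 4 samples could allow only if more genes were at the smallest p. Ly6c2 was seen in 82.8%, 87.7%, 57.9% and 62.3% of members of iKO samples 1 to 4 and 43.8%, 22.9%, 29.7% and 16.7% of control samples 1 to 4, against 36.5% and 9.5% of iKO and control B cells. Isg15 was seen in 28.9% to 40.8% of members of the iKO samples and 2.7% to 10.4% of control samples, against 24.6% and 9.5% of B cells, so the control share was at the level of B cells. Irf7 was seen in 25.5% to 34.2% of members of the iKO samples, below its share of 46.8% in iKO B cells, which can express it themselves. Gzmk overlapped between groups at 2000 UMIs per cell, and Gzmk and Ccl5 did so without thinning.

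Members with Havcr2 were compared with those without it as a description at equal depth. Havcr2 was seen in 549 of 1360 iKO and 67 of 214 control members. Prf1 was seen in 77.6% of Havcr2+ and 58.2% of Havcr2- iKO members, and in 74.6% and 46.3% of control members, higher with Havcr2 in 3 of 4 iKO and all 4 control samples. Gzmb was seen in 89.3% and 80.1% of iKO and 65.7% and 38.8% of control members, higher with Havcr2 in all 8 samples. Irf7 was seen in 22.8% and 28.9% of iKO members, lower with Havcr2 in all 4 iKO samples, and Cxcr3 in 7.1% and 11.7%, also lower in all 4.

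The genotype effect was then compared between members and Pdcd1- Tcf7+ CD8 T cells of the same samples, through the interaction of population and genotype with the sample as a block. Of 6772 genes, 31 differed (0.458%), 5 with a more positive and 26 with a more negative effect in members. Ly6c2 averaged 1172 CPM in iKO and 198 CPM in control members, and 2066 and 940.4 CPM in Pdcd1- Tcf7+ cells, a difference of log2 fold changes of 1.56 ± 0.18 (SE; edgeR adjusted p = 0.00013). CPM here are scaled to the summed UMIs alone, without the normalization factors used above. Gzmk averaged 229.9 and 70.2 CPM in members and 59.8 and 67.2 CPM in Pdcd1- Tcf7+ cells (difference 1.69 ± 0.35, SE; edgeR adjusted p = 0.0239), and Ccl5, Hmgb2 and Tle4 were likewise more positive. Ccr7 averaged 13.4 and 135 CPM in members and 178 and 134 CPM in Pdcd1- Tcf7+ cells (difference -3.56 ± 0.44, SE; edgeR adjusted p = 0.000209). Tbc1d4, Clic4, Cd83 and Actn1 followed. The count was 11 and 70 without iKO samples 2 and 1, and 17 and 13 without control samples 2 and 3.

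The interferon genes were tested in the same way. Of 64 tested genes of the type I interferon list, Ly6c2 was the one whose effect differed, and the median difference was 0.29 beside 0.02 over all genes. Of the list, 50 genes were tested in both populations, with median log2 fold changes of 1.32 in members and 1.13 in Pdcd1- Tcf7+ cells. The intervals of single genes were wide, and a p that misses the threshold does not show equal effects. Against Pdcd1+ Tcf7+ cells the comparison rested on iKO samples 2 and 4 and control sample 1, the samples with at least 20 cells of both. There 31 of 7450 genes differed (0.416%), and with 1 control sample these calls describe that sample. They were led by Il1b, S100a8, C1qa and C1qc, genes of myeloid cells, with C1qa at 364 CPM in the Pdcd1+ Tcf7+ cells of control sample 1 and 39.9, 43.2 and 0 CPM in those of control samples 2 to 4, which held too few cells for the test. No comparison with Gzmc or Gzmf effector cells was made, since no control sample had 20 of them.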

How the data were processed

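Droplet 3′ single-cell libraries of CD45+ tumour leukocytes were counted with Cell Ranger 7.1.0 on GRCm39, per the submitters' processing notes. The deposited matrices hold raw UMI counts per gene and barcode, with 1 matrix per hashtagged sample. How barcodes were assigned to hashtags is not given in the sources used here. In all matrices, 92 spike-in features and the hashtags were left out, and 0 columns belonged to other samples. The members, lists and rules were chosen with earlier results of these data known. Members were summed per sample (at least 20 cells) and tested with edgeR 4.0.16 in R 4.3.3: filterByExpr, TMM factors, quasi-likelihood test, Benjamini-Hochberg adjustment over all genes, threshold 0.05. In simulated counts of 5657 genes with 200 changed 4-fold, 92.0% of these were called, and 7.54% of calls were false. CPM use TMM factors unless stated. Named genes are the 12 largest rises and 12 largest falls among genes with adjusted p under 0.05, at least 20 CPM on average and no overlap of groups, without genes of the rule, and per list the genes with the smallest adjusted p. Shares were tested with exact permutation tests. Doublets were scored with Scrublet (scanpy 1.11.5): 8 members scored over 0.25 and were left out in an alternative. Other alternatives were DESeq2 1.42.0, no filter on low counts, each sample left out, a block on the sample number, a thinned rule, Pdcd1 of at least 2 UMIs and 25 members per sample. Intervals cover counting error only. Same-numbered samples of the 2 genotypes did not deviate together (correlations of 0.20, -0.004, 0.0871 and 8.48e-05), and replicates of a group differed beyond sampling noise (chi-square over degrees of freedom of 1.64 to 5.54). Results for some genes are not reported here.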

Additional observations from a re-analysis of the deposited data

Results flagged for a closer look

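In 10 of the 170 groups of 4 samples examined, 1 sample stood apart by Dixon's criterion, and chance alone sets about 1 in 20 such groups apart. In iKO sample 4 these were Cxcl10 at 247 CPM, Oas3 at 49.3 CPM and, on the low side, Ly6c2 at 589.8 CPM. Of the 125 Cxcl10 UMIs of that sample, 111 came from 1 of its 63 members. In control sample 1 they were Ifi27l2a at 1189 CPM, Ly6c2 at 408 CPM and Zbp1 at 80.3 CPM, each the highest control value of an interferon gene. The others were Cxcl2 at 884 CPM in control sample 2, Cd70 at 22.9 CPM in iKO sample 3, Ltb at 723 CPM in control sample 4 and Cxcr3 at 28.9 CPM in control sample 3.

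The genotype effect differed between members and Pdcd1- Tcf7+ CD8 T cells by the interaction test. The differences of log2 fold changes were 1.56 for Ly6c2, 1.71 for Ccl5, 0.81 for Hmgb2, 1.69 for Gzmk and 1.27 for Tle4, and -3.56 for Ccr7, -5.43 for Tbc1d4, -3.01 for Clic4, -3.31 for Cd83 and -1.92 for Actn1. Between members and Pdcd1+ Tcf7+ cells, with 1 control sample, they were 4.35 for Il1b, 1.46 for Ccl5, 3.26 for S100a8, 5.28 for C1qc and 4.44 for C1qa, and -6.91 for Penk, -1.95 for Ccl4, -2.11 for Plac8, -2.86 for Nr4a2 and -4.46 for Nr4a3. No explanation was tested for any of these values.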

How the results depend on the processing

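The count of genes changed between genotypes, 388, was 632 without the filter on low counts (16440 genes tested), 132 when members were chosen after thinning (7 samples), 144 with 25 members per sample (63.9% of them higher, against 52.1%), 609 without iKO samples 3 and 4 together and 228 to 379 when 1 sample was left out. DESeq2 called 320. With the sample number as a replicate block it was 417, and the numbers do not pair the samples. The interaction with Pdcd1- Tcf7+ cells, 31 genes, was 13 with DESeq2, 105 without the filter and 11 to 70 with 1 sample left out. That with Pdcd1+ Tcf7+ cells, 31 genes, was 11 with DESeq2. No sample could be left out there. The difference in the share of CD8 T cells, 7.96 points, was 5.52 to 9.22 points with 1 sample left out. Spp1 reversed to 0.43 with 25 members per sample. Among the 83 named genes, 1257 of 1473 alternative values kept their direction and side of the threshold. The cause of these shifts was not tested, other than fewer samples, cells or genes where stated. The small control samples, with 25 to 106 members, limit all comparisons.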
